A study of Mus musculus with 4 samples.

Results

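The matrix metalloproteinases (MMPs), the ADAM and ADAMTS proteases and their inhibitors, the TIMPs, were described across dental follicle and dental papilla of the mouse. The members were chosen by name, with earlier results of these data known. They are all gene symbols of the array that begin with Mmp, Adam or Timp and a number or with Adamts, without the neutrophil collagenase Mmp8 and the gelatinase Mmp9. This gave 60 of 16039 named genes, on 95 probes: 13 MMPs, 22 ADAMs, 16 ADAMTS genes, 5 ADAMTS-like genes and 4 TIMPs. Of these, 58 had a normalised signal of 100 or more in some sample and were compared, among 14238 genes that did. The ADAM genes Adam4 and Adam5 did not, with highest signals of 84.9 and 78.2, and the lowest member kept, Adamtsl5, reached 102. Of the 58, 39 reached 100 in both tissues, 14 in papilla samples only and 5 in follicle samples only. Members of those last sets were kept through the tissue where they are high, so counts over the 58 are read with that limit. Another 23 mouse genes that match the names in the RefSeq gene table, the enamel protease Mmp20 and the procollagen N-proteinase Adamts2 among them, have no named probe and are not analysed here.

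Dental follicle (DF) is loose connective tissue that wraps the tooth germ and later forms the periodontal ligament and cementum. Dental papilla (P) is the mesenchyme that it encloses, which forms odontoblasts and pulp. Agilent 2-colour arrays were used on 4 kinds of sample: DF PN2, P PN2, DF E17 and P E17, the stages written as the labels give them. No treatment and no altered allele is named for any group, and the strain and the number or pooling of animals are not given in the sources used here. One tissue entry reads DF PN3 beside a title that reads DF PN2, and other entries name a whole embryo and the culture of stem cells, so the titles were followed. Each tissue and stage has 1 signal column from 1 hybridisation, so no difference here has a replicate check and no p-value is given. A gene is called higher or lower past a log2 ratio of 1 in either direction, the 2-fold limit that the series design names, and all signals below are quantile-normalised intensities on a linear scale, averaged over a gene's probes as logs. Signals of different genes are not set against each other, because each probe has its own brightness. Sums over a marker list are led by its brightest genes and serve only to compare samples.

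The error given is the standard deviation (SD) of the log2 ratio between probes of the same gene, over 6436 genes. It was 0.76 for DF over P at PN2, 0.58 for DF over P at E17, 0.46 for PN2 over E17 in DF and 0.65 for PN2 over E17 in P. It covers the probes of 1 hybridisation and no variation between animals. In whole tissue, fewer cells of a type and less RNA per cell cannot be told apart.

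The 5th percentile of the signals before normalisation was 25.7 in DF PN2, 32.4 in P PN2, 37.5 in DF E17 and 66.4 in P E17, so low signals differed in their floor between the samples. The tissue names were set against marker genes. All 9 osteoclast markers and 7 of 8 macrophage and leukocyte markers were higher in DF than in P at PN2, as were 9 of 9 and 8 of 8 at E17. The odontoblast markers Dlx3 and Smpd3 were lower in DF, with log2 ratios of -3.53 and -2.24 at PN2 and of -4.50 and -2.89 at E17. The other odontoblast markers with a probe did not pass 2-fold on that side. Col1a1, which bone cells also make, had ratios of 0.80 at PN2 and 3.01 at E17, the second called higher in DF, and Nes had -0.10 and -0.07. The defining genes Dspp and Dmp1 are not analysed here. Ameloblast markers, of the enamel epithelium, summed to signals of 943 in DF PN2, 10435 in P PN2, 733 in DF E17 and 2878 in P E17. Sp6 alone made up 9018 of the sum in P PN2 and 2002 of that in P E17, where Amelx had 539 and 162. Of the 5 ameloblast markers kept, 5 were lower in DF at PN2 and 3 at E17. General epithelial markers did not share that side. Of 5 kept, 1 was higher and 1 lower in DF at PN2, and 4 were higher and none lower at E17. Xist, which is expressed from an inactive X chromosome, gave signals of 2890.4 in DF PN2, 827 in P PN2, 19.7 in DF E17 and 3846 in P E17. Its log2 ratio was -7.61 for DF over P at E17 and 7.20 for PN2 over E17 in DF. The labels do not give the sex of the animals, and a part of sex in the comparisons with DF E17 was not tested.

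MMPs are secreted or membrane-bound zinc enzymes that cut collagens and other matrix proteins, and they are made as inactive precursors. ADAMs sit in the cell membrane and release growth factors and receptors from it, while ADAMTS proteases are secreted and cut proteoglycans, procollagens and other matrix proteins. TIMPs bind the active sites of MMPs and, for some of them, of ADAMs and ADAMTS proteases, and matrix around the tooth is remodelled while the tooth erupts through bone.

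The widest tissue difference among the members was that of Mmp13. Its neighbours on chromosome 9, Mmp3 and Mmp1a, lay on the other side at both stages. For Mmp1a at PN2 the log2 ratio was only -0.39. There are 2 genes between Mmp13 and Mmp3, and each of the 3 members has 1 probe. Mmp3 and Mmp1a passed the signal filter through papilla samples only, and Mmp13 through follicle samples only. Their sides are therefore partly set by the filter. Odorant and vomeronasal receptor genes lay on the papilla side too, with the values given beside the reproductive tract ADAMs. Because of the contrast, the 250 bases before the start of these 3 genes are shown, on the plus strand of GRCm38.p6, from RefSeq. Capitals mark matches to TGANTCA, the motif of AP-1 factors, to ACCACA, the core that RUNX factors bind, and to the TATA sequence TATAAA, each searched on both strands.
Mmp13: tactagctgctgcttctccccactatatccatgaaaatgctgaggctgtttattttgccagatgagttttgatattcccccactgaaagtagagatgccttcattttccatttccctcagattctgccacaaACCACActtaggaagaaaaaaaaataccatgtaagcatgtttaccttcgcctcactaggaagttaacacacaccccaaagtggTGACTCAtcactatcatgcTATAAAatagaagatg
Mmp3: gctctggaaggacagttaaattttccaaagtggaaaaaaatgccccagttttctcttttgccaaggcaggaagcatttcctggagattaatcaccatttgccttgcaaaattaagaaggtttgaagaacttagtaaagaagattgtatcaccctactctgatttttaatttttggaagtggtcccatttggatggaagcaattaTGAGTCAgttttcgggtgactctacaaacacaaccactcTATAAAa
Mmp1a: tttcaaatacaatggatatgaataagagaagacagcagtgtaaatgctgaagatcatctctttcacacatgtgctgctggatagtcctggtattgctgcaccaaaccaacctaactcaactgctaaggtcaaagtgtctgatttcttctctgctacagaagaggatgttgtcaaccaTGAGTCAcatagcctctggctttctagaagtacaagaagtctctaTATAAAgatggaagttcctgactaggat
The Mmp13 stretch is chr9:7272264-7272513, the Mmp3 stretch is chr9:7445572-7445821 and the Mmp1a stretch is chr9:7463891-7464140. All 3 hold TGANTCA, whose first base lies 35 bases before the start of Mmp13, 46 before that of Mmp3 and 73 before that of Mmp1a. All 3 hold TATAAA, and among the 3 only the Mmp13 stretch holds ACCACA, 118 bases before the start. Of all 32851 RefSeq promoters of that length, 6.75% hold TGANTCA, 14.0% hold ACCACA and 12.4% hold TATAAA. Among 38 members with a promoter in the table, 5 hold TGANTCA, and the other 2 are Adam19 and Adam25. ACCACA is held by 7 of the 38: Mmp13, Mmp14, Mmp23, Adam15, Adam19, Adam1a and Adam21. The last 2 were lower in DF at PN2, and a link between ACCACA and the tissue side was not tested. TATAAA is held by 8. A member counts if any of its promoters holds the motif, while the percentages are per promoter, so the 2 measures differ. The motifs do not overlap in these stretches, and a match describes letters and not a bound site.

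At PN2, 26 of the 58 members (44.8%) differed past 2-fold between DF and P, 13 higher and 13 lower, beside 26.2% of all 14238 genes (12.8% higher and 13.4% lower). At E17, 22 of 58 (37.9%) differed, 15 higher in DF and 7 lower, beside 20.6% of all genes (10.5% higher and 10.1% lower). All 7 members lower at E17, and all 13 lower at PN2 but Adam1a and Adam21, reached the filter in papilla samples only. Their side is therefore partly set by the filter. On the higher side, Adam12, Adamts15 and Mmp13 reached it in follicle samples only. Without normalisation between the columns the E17 split was 10 higher and 14 lower. The members' median log2 ratio was 0.15 at PN2 and 0.17 at E17, beside a median of -0.07 over all genes at each stage. The E17 median of the members was -0.32 without normalisation and -0.04 with median centring. Counts by group and list below are small and are read beside the shares of all genes given here.

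The same tissue side was kept by 51 of 58 members between the stages (87.9%, beside 71.9% of all genes). The genes Mmp13, Adamts1, Adamts15, Adamts5, Adam12, Adam9, Adam10, Timp1 and Timp3 were higher in DF past 2-fold at both stages, 9 of 58 members beside 6.05% of all genes. Lower in DF at both were Adam18, Adam26a, Adam33, Adam6a and Mmp3, 5 of 58 beside 5.62% of all genes. All 5 passed the signal filter through papilla samples only, so this count is partly set by the filter. No member passed 2-fold on opposite sides. Of the calls at PN2, 14 of 26 also exceeded 2 SD between probes for their signal range (13 with low signals raised to the 5th percentile, without Adam25), as did 20 of 22 at E17. Without normalisation the E17 calls of Adam10, Adam23, Adam9, Adamtsl1 and Mmp16 were lost, and 9 of the PN2 calls, those of Adam10, Adam18, Adam1a, Adam21, Adam6a, Adamts16, Adamts4, Adamts8 and Mmp3, were lost with an offset of 50 added to the signals.

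**Figure D1:**
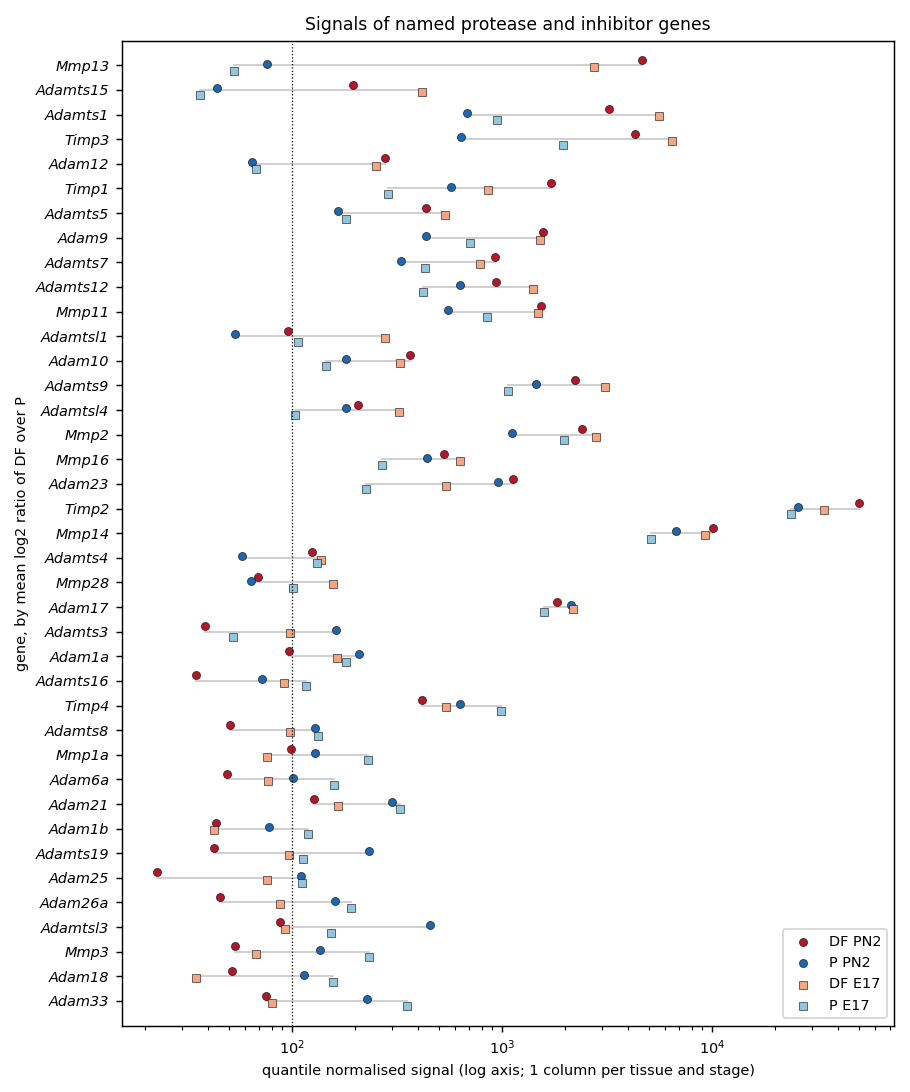
Normalised signals (log axis) of the members called in any comparison or always named, 1 point per sample, with the filter of 100 as a dotted line. Mmp13 has the widest gap between tissues, at 4646 in DF PN2 against 75.7 in P PN2.

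Among the MMPs, the collagenase Mmp13, which cuts fibrillar collagen in bone and cartilage, had a signal of 4646 in DF PN2, 75.7 in P PN2, 2754 in DF E17 and 53.2 in P E17. Both follicle samples were far above both papilla samples. DF was 61.3-fold above P at PN2 and 51.7-fold at E17, log2 ratios of 5.94 and 5.69 on 1 probe. Both papilla signals of Mmp13 were under 100, and the fold depended on the scale: it was 78.6 at PN2 and 34.0 at E17 without normalisation, and 36.9 and 26.8 with an offset of 50. Its stage difference was under 2-fold in either tissue, at 0.75 in DF and 0.51 in P. Markers of osteoclasts and macrophages also lay on the follicle side, and osteoclast markers summed to 72954 in DF PN2, 3167 in P PN2, 61688 in DF E17 and 3576 in P E17. The 3 osteoblast markers did not share 1 side at PN2. Ibsp, at 20649 in DF PN2, made up most of their summed signal of 22634 there and had ratios of 5.02 at PN2 and 6.20 at E17. Bglap and Sp7 had ratios of -0.87 and -0.71 at PN2, and of 0.92 and 0.35 at E17, all under 2-fold. The part of these cells in the Mmp13 difference was not tested.

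Mmp3, stromelysin-1, which cuts many matrix proteins and activates other MMPs, had signals of 53.9 in DF PN2, 136 in P PN2, 67.1 in DF E17 and 234 in P E17. DF was the lower tissue at both stages, with log2 ratios of -1.33 at PN2 and -1.80 at E17. Mmp1a, a mouse interstitial collagenase, had a log2 ratio of -0.39 at PN2 and was lower in DF past 2-fold at E17, at -1.61. Odorant and vomeronasal receptor genes lay on the same side as these low signals, with the values given beside the reproductive tract ADAMs.

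Mmp2, gelatinase A, had signals of 2401 in DF PN2, 1119 in P PN2, 2804 in DF E17 and 1971 in P E17. It was higher in DF at PN2 by 1.10 on the log2 scale, while the ratio of 0.51 at E17 was under 2-fold. Mmp14, the membrane-type enzyme that activates Mmp2 at the cell surface, had signals of 10131 in DF PN2, 6729.9 in P PN2, 9241 in DF E17 and 5124 in P E17. Its log2 ratios of DF over P were 0.59 at PN2 and 0.85 at E17, so neither passed 2-fold. Before normalisation the Mmp14 signals at PN2, 10680 in DF and 5024 in P, differed past 2-fold, while those at E17 did not. On the normalised scale, all 5 membrane-type MMPs had a PN2 ratio above 0, with a median of 0.35 and none past 2-fold. At E17 their median was 0.30, and Mmp16, a further membrane-type enzyme with a ratio of 0.27 at PN2, alone passed 2-fold at 1.23.

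Mmp11, stromelysin-3, had a log2 ratio of 1.47 at PN2 and 0.82 at E17, the second under 2-fold. It belongs with Mmp28 and other MMPs outside the classes above, 4 genes of which 1 was higher in DF at PN2 and none at E17.

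The ADAMs fell into groups by where they are known to act. Of 9 somatic ADAMs with a catalytic zinc motif, 3 were higher in DF and 1 was lower at each stage, with medians of 0.38 at PN2 and 0.46 at E17. Adam12, an enzyme of mesenchyme and fusing cells, had signals of 276 in DF PN2, 64.3 in P PN2, 252 in DF E17 and 67.2 in P E17. DF was above P at both stages, with log2 ratios of 2.10 at PN2 and 1.91 at E17, and its 2 probes ranged from 1.54 to 2.67 and from 1.04 to 2.77. Adam9, a widely expressed sheddase, had signals of 1575 in DF PN2, 437 in P PN2, 1516 in DF E17 and 704 in P E17, with ratios of 1.85 at PN2 and 1.11 at E17. Adam10, the sheddase of Notch receptors, had signals of 363 in DF PN2, 181 in P PN2, 326 in DF E17 and 145 in P E17. Its ratios were 1.00 at PN2, just past the limit, and 1.17 at E17.

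Adam17, the sheddase of tumour necrosis factor and of EGF receptor ligands, had signals of 1837 in DF PN2, 2143 in P PN2, 2189.8 in DF E17 and 1588 in P E17. Its log2 ratios were -0.22 at PN2 and 0.46 at E17, smaller than the SD between probes and under 2-fold. Adam33, a catalytic ADAM of mesenchyme, lay the other way, at 75.0 in DF PN2, 228 in P PN2, 80.3 in DF E17 and 354 in P E17. DF was the lower tissue, with ratios of -1.61 at PN2 and -2.14 at E17, and all 3 probes were on the papilla side, from -2.53 to -0.48 at PN2.

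Adam23, which has no catalytic zinc motif and binds LGI proteins of the nervous system, had signals of 1134 in DF PN2, 962 in P PN2, 543 in DF E17 and 226 in P E17. Both PN2 samples were above both E17 samples. The log2 ratio of DF to P was 0.24 at PN2, where its 2 probes disagreed in sign (-0.53 and 1.01), and 1.26 at E17.

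The reproductive tract ADAMs are known from testis and epididymis, where they take part in sperm maturation and fertilisation. Of 11 with a probe, 6 were called lower in DF at PN2 and 4 at E17, and none was called higher. Of the 9 kept, 5 reached 100 in papilla samples only (Adam18, Adam1b, Adam25, Adam26a and Adam6a), so their side is partly set by the filter. Those left out were Adam4, with ratios of 0.21 at PN2 and 0.19 at E17, and Adam5, with -1.74 and 0.12. Adam18 had signals of 52.0 in DF PN2, 114 in P PN2, 35.1 in DF E17 and 158 in P E17, with ratios of -1.14 at PN2 and -2.17 at E17. Adam26a had 45.4 in DF PN2, 159.7 in P PN2, 87.5 in DF E17 and 192 in P E17, with ratios of -1.81 at PN2 and -1.13 at E17. Adam6a had 49.3 in DF PN2, 101 in P PN2, 77.2 in DF E17 and 159 in P E17, with ratios of -1.03 at PN2 and -1.04 at E17. In Adam25 the signals were 22.8 in DF PN2, 111 in P PN2, 76.3 in DF E17 and 111 in P E17, and the PN2 ratio was -2.28, or -1.55 with signals raised to the 5th percentile of 37.9. Adam1a and Adam21 were lower in DF past 2-fold at PN2 (-1.10 and -1.24, beside -0.14 and -0.99 at E17), and Adam1b had ratios of -0.83 at PN2 and -1.48 at E17, the second past 2-fold.

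These signals are low, and the same side was seen in genes of another kind. Of 372 odorant and vomeronasal receptor genes kept (symbols beginning Olfr or Vmn), 59.4% were lower in DF than in P at PN2 and 42.5% at E17, with medians of -1.19 and -0.91. None of them was higher in DF past 2-fold at PN2, and 0.806% were at E17. What part of the members' values goes with this shift was not tested. Split by highest signal, the 9 members between 100 and 150 had 1 higher and 3 lower in DF at PN2, and none higher and 1 lower at E17. Of all genes in that range, 9.36% were higher and 18.0% lower at PN2, and 7.51% higher and 13.4% lower at E17. The 17 members between 150 and 300 had 1 higher and 7 lower in DF at PN2, and 2 higher and 5 lower at E17, where all genes had 10.6% higher and 14.6% lower at PN2, and 9.22% higher and 13.5% lower at E17. Between 300 and 1000, 17 members had 4 higher and 3 lower at PN2, and 5 higher and 1 lower at E17, beside 12.8% and 11.9% of all genes at PN2, and 10.8% and 8.87% at E17. The 15 members whose highest signal reached 1000 had 7 higher and none lower at PN2, and 8 higher and none lower at E17, with medians of 0.97 and 1.11. Of all genes from 1000 up, 16.1% were higher and 12.6% lower at PN2, and 12.4% higher and 7.77% lower at E17.

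**Figure D2:**
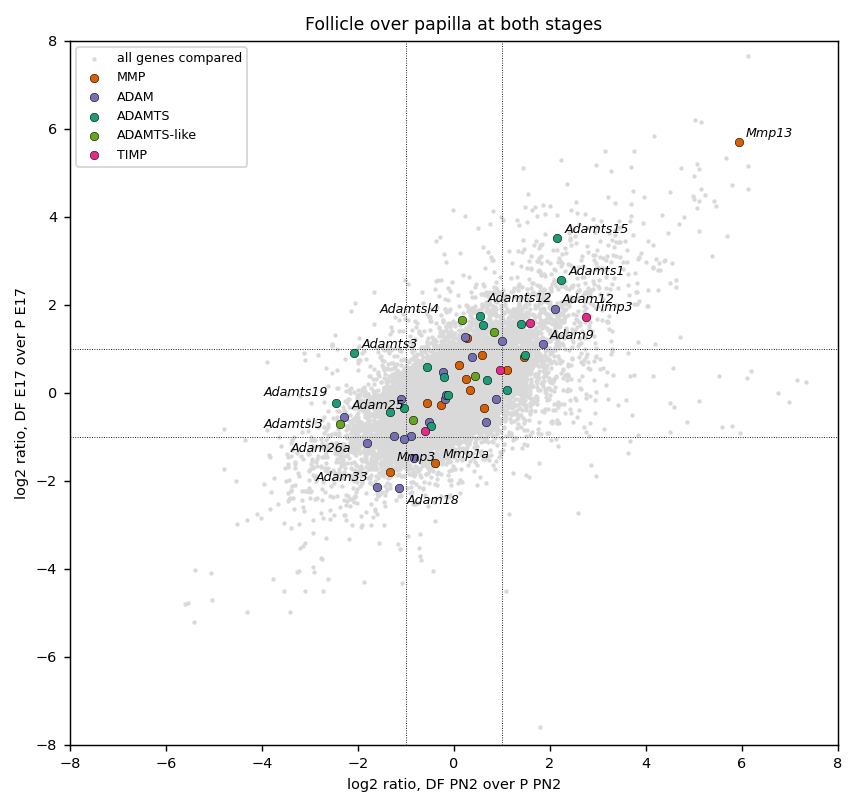
Tissue ratios (log2, DF over P) of 58 members (coloured by family), PN2 on the horizontal and E17 on the vertical axis, with all genes kept in grey and dotted lines at the 2-fold limit. Mmp13 stands at the upper right and Adamts3 at the left, with a ratio of -2.08 at PN2 against 0.90 at E17.

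The hyalectanase ADAMTS genes encode proteases that cut versican, aggrecan and related proteoglycans. Of 7 measured, 4 were higher and 1 lower in DF at PN2, beside 12.8% and 13.4% of all genes. At E17, 4 were higher and none lower, beside 10.5% and 10.1% of all genes. The medians at PN2 and E17 were 1.12 and 1.55 and stayed above 0 under every scaling tried. Adamts1 had signals of 3229 in DF PN2, 683 in P PN2, 5617 in DF E17 and 952 in P E17, and both follicle samples were above both papilla samples. Its ratio was 2.24 at PN2 (2.19 and 2.29 on 2 probes) and 2.56 at E17 (2.40 and 2.72). Adamts5, its neighbour on chromosome 16 with no coding gene between, had signals of 434 in DF PN2, 165 in P PN2, 537 in DF E17 and 181 in P E17. The ratio was 1.39 at PN2 and 1.57 at E17.

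Adamts15 had signals of 196 in DF PN2, 43.9 in P PN2, 415 in DF E17 and 36.5 in P E17, ratios of 2.16 at PN2 and 3.50 at E17. With its lowest signal raised to the 5th percentile, the E17 ratio was 3.45. Its adjacent gene Adamts8 lay on the other side at PN2, with a ratio of -1.33, and -0.43 at E17. Adamts4 had signals of 125 in DF PN2, 57.7 in P PN2, 138 in DF E17 and 132 in P E17, so the papilla at PN2 was the low sample. Its ratio was 1.12 at PN2 and 0.07 at E17, and the PN2 call was lost with median centring and in the deposited ratios. Adamts9 had a ratio of 0.61 at PN2, under 2-fold, and was higher in DF at E17 (1.55, with probes at 1.34 and 1.76).

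A wider list, of hyalectans and other ADAMTS substrates, had its calls on the papilla side. Of 7 kept, 5 were lower in DF at PN2 and none higher, beside 13.4% and 12.8% of all genes. Fbn2, a fibrillin, was at -3.30 and Acan, aggrecan, at -2.70. At E17, 3 were lower and none higher, beside 10.1% and 10.5% of all genes. Vcan, versican, was at -2.02 and Fbn2 at -1.57. Among those called lower, Hapln1 and Ncan had low signals and passed the filter through papilla samples only.

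Procollagen N-proteinases remove the amino-terminal propeptide of fibrillar procollagens. Adamts3, with this activity, had signals of 38.6 in DF PN2, 163 in P PN2, 97.9 in DF E17 and 52.6 in P E17. The high sample was the papilla at PN2 and the low one the follicle at PN2. Its ratio of DF over P was -2.08 at PN2, -2.52 and -1.63 on its 2 probes, and 0.90 at E17. The other kept member, Adamts14, did not pass 2-fold in any comparison.

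Among 7 other ADAMTS genes, 1 was higher and 2 lower in DF at PN2, and 1 was higher and none lower at E17. Adamts7, which cuts the cartilage protein COMP, was higher in DF at PN2 (1.49, with probes at 0.11 and 2.86) and had a ratio of 0.86 at E17. Adamts12, which also cuts COMP, had a ratio of 0.56 at PN2 and was higher in DF at E17 (1.74, with probes from 1.44 to 2.12). Adamts19, a protease whose substrates are little known, had signals of 42.4 in DF PN2, 233 in P PN2, 96.5 in DF E17 and 113 in P E17, and ratios of -2.46 at PN2 and -0.23 at E17. Adamts16 had 35.1 in DF PN2, 72.4 in P PN2, 91.3 in DF E17 and 117 in P E17, with ratios of -1.04 at PN2 and -0.36 at E17. Its PN2 ratio was -0.93 with signals raised to the 5th percentile, which ends the call.

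ADAMTS-like proteins share the matrix-binding parts of ADAMTS proteases and lack the protease. Of 5, none was higher and 1 lower in DF at PN2, and 2 were higher and none lower at E17. Adamtsl1 had signals of 95.8 in DF PN2, 53.9 in P PN2, 278 in DF E17 and 107 in P E17, with ratios of 0.83 at PN2 and 1.38 at E17. Adamtsl4, which binds fibrillin microfibrils, had a ratio of 0.18 at PN2 and was higher in DF at E17 (1.64). Adamtsl3 had signals of 87.6 in DF PN2, 453 in P PN2, 92.9 in DF E17 and 153 in P E17. The papilla at PN2 stood above the other 3 samples, and the ratio was -2.37 at PN2 and -0.72 at E17.

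**Figure D3:**
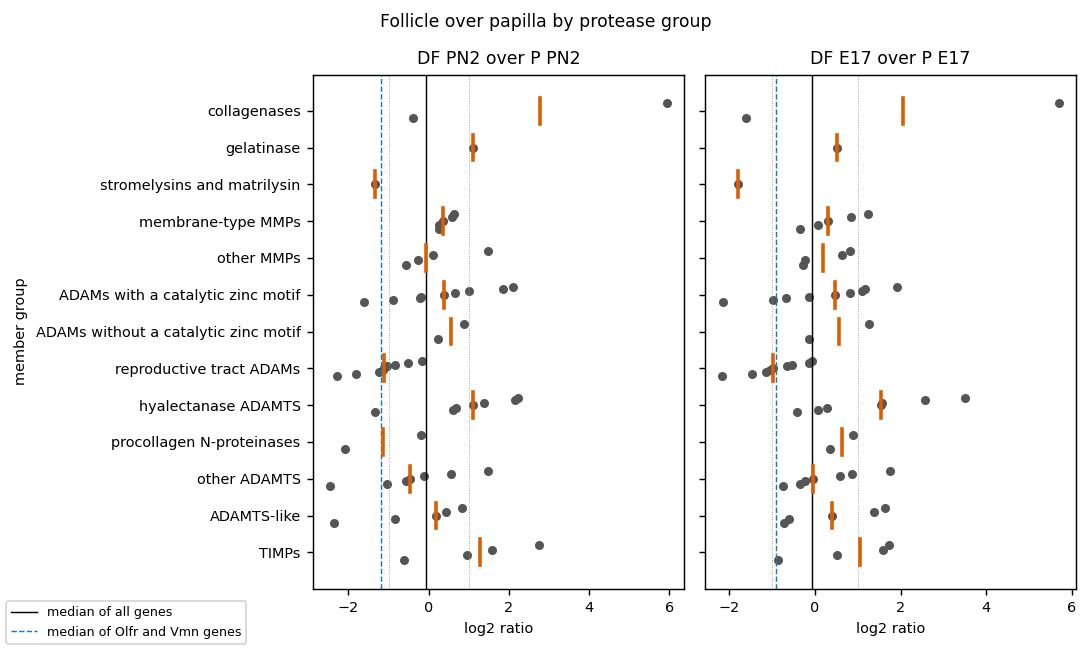
Tissue ratios (log2, DF over P) by role, PN2 on the left and E17 on the right. Points are the 58 kept members, orange bars group medians, the solid line the median of all genes, the dashed line that of odorant and vomeronasal receptor genes, and dotted lines the 2-fold limit; the height of a point within its row has no meaning. TIMP and hyalectanase genes lie mostly above 0, and the 9 reproductive tract ADAMs that passed the filter lie below 0.

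Of the 4 TIMPs, 2 were higher in DF and none lower at each stage, with medians of 1.28 at PN2 and 1.05 at E17. Of all genes, 12.8% were higher in DF at PN2 and 10.5% at E17. Timp3, which binds the matrix and inhibits ADAM17 and aggrecan-cutting ADAMTS proteases beside MMPs, had signals of 4287 in DF PN2, 637 in P PN2, 6475 in DF E17 and 1958 in P E17. Its ratio was 2.75 at PN2 and 1.73 at E17. Timp1, an inhibitor of most secreted MMPs, had signals of 1714 in DF PN2, 569.7 in P PN2, 857 in DF E17 and 287 in P E17. Its ratio was 1.59 at PN2 and 1.58 at E17, and its 2 probes ranged from 1.36 to 1.82 and from 1.42 to 1.74. Timp2, which takes part in Mmp2 activation, had signals of 50244 in DF PN2, 25668 in P PN2, 34142 in DF E17 and 23843 in P E17. Its ratios of 0.97 at PN2 and 0.52 at E17 were under 2-fold. Before normalisation the Timp2 signals at PN2, 52368 in DF and 19203 in P, differed past 2-fold, while those at E17 did not. Timp4 had signals of 415 in DF PN2, 631 in P PN2, 544 in DF E17 and 989 in P E17. It was the single TIMP with ratios below 0, at -0.60 and -0.86, and neither passed 2-fold.

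Between the stages, fewer members differed. In DF, 8 of 58 members (13.8%) passed 2-fold, 1 higher and 7 lower at PN2, beside 7.89% of all genes (3.83% higher and 4.06% lower). Without normalisation the split was 0 higher and 15 lower, and in the deposited ratios 5 higher and 9 lower. Adam23 was higher at PN2 (log2 ratio 1.06). Lower at PN2 were Adam25 (-1.74), Adamtsl1 (-1.54), Adamts16 (-1.38), Adamts3 (-1.34), Adamts19 (-1.19), Mmp28, the MMP epilysin (-1.18), and Adamts15 (-1.08). All 8 exceeded 2 SD between probes, but with signals raised to the 5th percentile Adam25 was at -1.01 and did not. Adamtsl1 was the single one called under each of 7 other ways to compute the ratio at the same filter and 2-fold limit (no normalisation, median centring, the deposited ratios, raised low signals, the median or the brightest probe, and the offset), and it was lost with a 3-fold limit. Beside these, 4 of 4 neutrophil markers were higher in DF PN2, with summed signals of 44075 in DF PN2, 478 in P PN2, 261 in DF E17 and 257 in P E17, and 3 of 8 macrophage and leukocyte markers were too. Timp1 had a log2 ratio of 1.00 in this comparison and did not pass the limit.

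In P, 6 of 58 members (10.3%) passed 2-fold, 4 higher and 2 lower at PN2, beside 11.6% of all genes (6.55% higher and 5.09% lower). That share is near the background. Without normalisation the split was 1 higher and 27 lower, and with median centring 3 and 3. Adam23 was higher by 2.09, with probes at 1.19 and 2.99. Adamts3 was higher by 1.63 (1.42 and 1.84), Adamtsl3 by 1.57 (1.25 and 1.88) and Adamts19 by 1.04. Timp3 (-1.62) and Adamts4 (-1.19) were lower. Calls for Adamts19, Adamts3 and Adamtsl3 were lost without normalisation, and that for Adamts19 also with median centring and in the deposited ratios. Over the same pair of samples, 3 of 5 ameloblast and 3 of 3 osteoblast markers were higher at PN2, and 2 of 5 endothelial markers were lower. Of 5 general epithelial markers, 3 were higher at PN2 and 1 lower. The part of those cells in these differences was not tested.

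**Figure D4:**
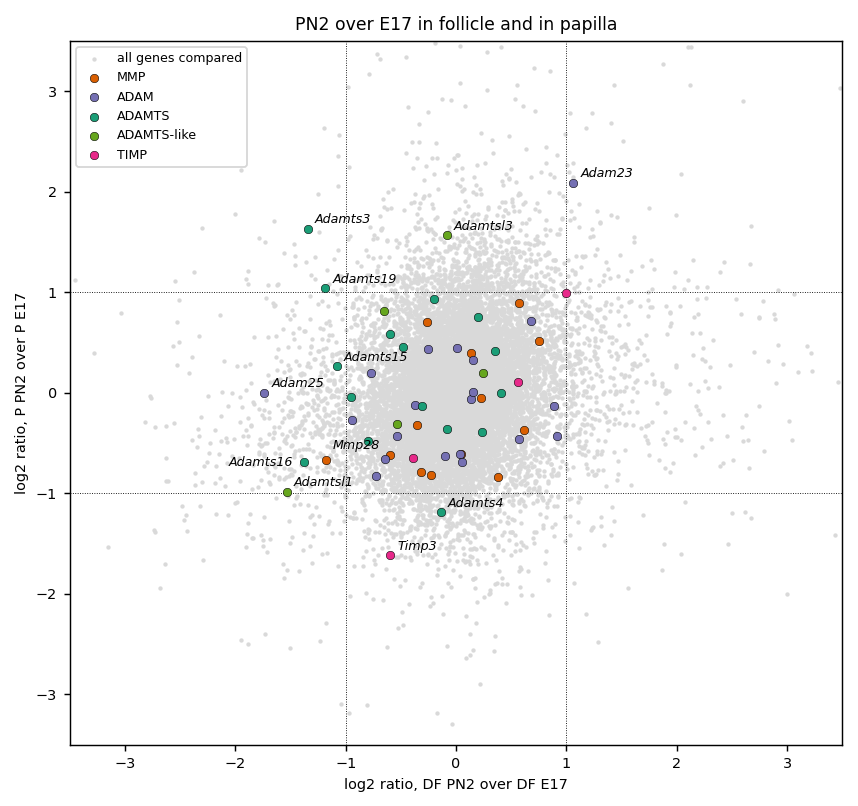
Stage ratios (log2, PN2 over E17) of 58 members (coloured by family) and all genes kept (grey), DF on the horizontal and P on the vertical axis, with dotted lines at the 2-fold limit. Axes end at 3.5 in either direction, so some of all genes lie outside; Adamts3 and Adamts19 lie below 0 in DF and above 0 in P.

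The tissue ratio itself changed past 2-fold between PN2 and E17 in 15 of 58 members (25.9%), 6 upward and 9 downward, beside 17.3% of all genes (8.12% upward and 9.14% downward). Without normalisation the split was 13 upward and 4 downward, and in the deposited ratios 4 and 11. Calls of Adam23, Adamts10, Adamts12, Adamts15 and Adamtsl4 were lost without normalisation, and those of Adam18, Adam23 and Adamts4 with median centring. Adamts3 changed most, by -2.97 (-3.02 and -2.92 on its 2 probes), followed by Adamts19 at -2.23, Adam25 at -1.74 and Adamtsl3 at -1.65. Those 4 and Adamtsl4, at -1.46, exceeded 2 SD between probes, and the other 10 did not. That SD is taken over many genes. The 2 probes of Adamtsl3 itself gave -3.16 and -0.14, with an SD of 2.13 that is larger than its change. Adamts19, Adam25 and Adamtsl4 have 1 probe each. With signals raised to the 5th percentile, Adam25 was at -1.01 and no longer exceeded 2 SD. The upward side held Adam8, an ADAM of leukocytes, at 1.34 (369 in DF PN2, 232 in P PN2, 196 in DF E17 and 314 in P E17), Mmp1a at 1.21, Adamts4 at 1.05, Adam18 at 1.03, Adam11 at 1.02 and Timp3 at 1.02. On the downward side also stood Adamts15 at -1.35, Adamts12 at -1.18, Adamts10 at -1.13 and Adam23 at -1.03. In Mmp13 the change was 0.25, in Timp1 0.01, in Adam12 0.20 and in Adam17 -0.69.

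**Figure D5:**
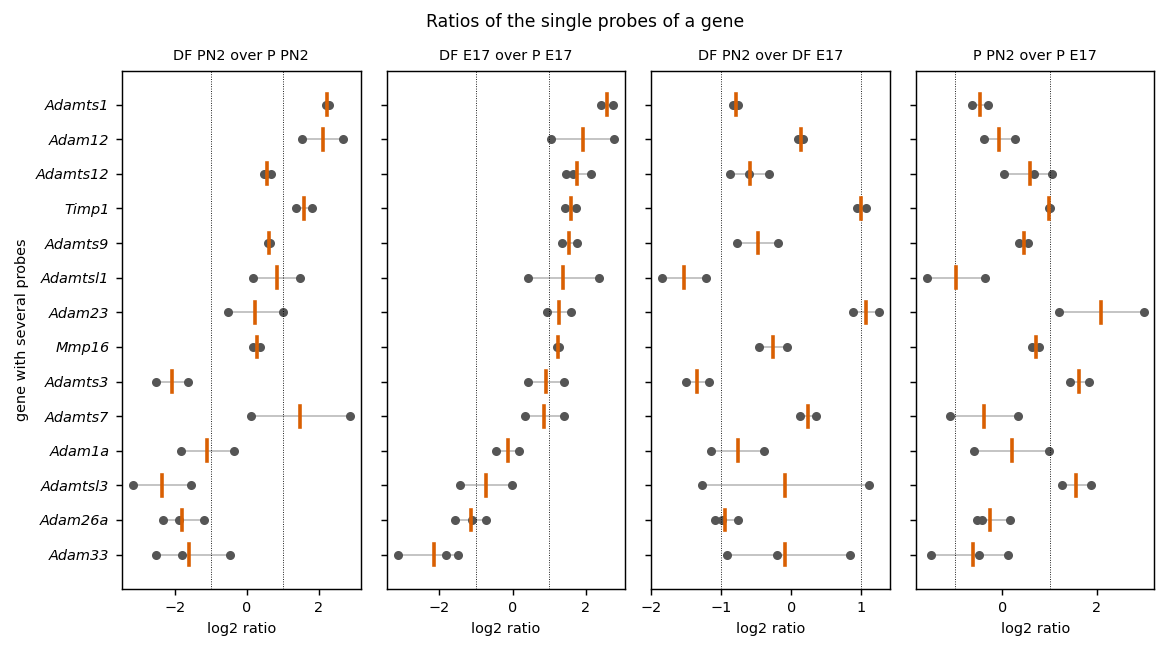
Log2 ratios of single probes for called members with several probes, in the 4 comparisons. Each point is 1 probe, the orange bar is the gene's mean and dotted lines mark the 2-fold limit; Adamts1 probes lie close together, from 2.40 to 2.72 at E17, while Adamts7 probes reach from 0.11 to 2.86 at PN2.

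Probes of the same gene gave the same side in most of the calls that could be compared. A call is made on the mean of those probes, so this agreement is partly set by the calling. At PN2, 9 called members had several probes, with all probes on 1 side in 9 and all past 2-fold in 6. At E17 the counts were 10, 10 and 7. For the change between stages they were 6, 4 and 1, so those calls rest more on single probes.

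Companion genes of the protease system were read from lists. Of 12 MMP activators and cell-surface regulators kept, 4 were higher and 2 lower in DF at PN2, and 3 higher and 1 lower at E17. At PN2 the proprotein convertases Pcsk6 (1.39) and Furin (1.38), which remove protease propeptides, were highest, and Bsg (-1.07), an inducer of MMPs, and Plg (-1.04), plasminogen, were lowest. At E17 the hyaluronan receptor Cd44 was at 1.93, the plasminogen activator Plau at 1.78 and Plg at -1.89. Among 10 ADAM partners and ligands kept, 4 were higher and 1 lower in DF at PN2, with Tspan33, an Adam10-binding tetraspanin, at 2.67, Rhbdf2, a carrier of Adam17, at 2.11 and the ligand Ereg at -1.59. At E17, 3 were higher and 1 lower, with Egfr at 2.78, Tspan15 at 1.54 and Nrg1 at -1.04. Plg and Nrg1 were under 100 in both follicle samples and passed the filter through papilla samples only.

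Of 11 fibrillar procollagens and processing genes, 3 were higher and none lower in DF at PN2, with Col5a2 at 1.68 and Col2a1 at 1.60. At E17, 6 were higher and 1 lower, with Col1a1 at 3.01, Col1a2 at 1.79 and Pcolce2 at -1.79. The E17 signals of Col1a2 were low, at 93.3 in DF and 27.1 in P, and it passed the filter through DF PN2 only. Col1a1 had the same signal of 51327 in DF PN2 and DF E17. Among 5 other metalloproteinases and inhibitors, Mme, neprilysin, was higher in DF at both stages, by 2.60 at PN2 and 3.83 at E17. Ece1 (1.01) was higher and Papln (-2.02) and Spock2 (-1.89) were lower at PN2. Papln passed the filter through P PN2 only, at a signal of 124. In P over the stages, Col1a1 (2.21) and Acan (1.75) were higher at PN2 on the log2 scale, and the procollagen protease Tll1 (-2.47) and the membrane inhibitor of MMPs Reck (-1.27) were lower. In DF, Tspan33 (2.70) and the Plau receptor Plaur (1.40) were higher, and Tll1 (-1.23) and Vcan (-1.01) were lower at PN2.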

How the data were processed

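RNA of mouse DF and P was measured at E17 and PN2 on 2-colour arrays read with Agilent Feature Extraction 8.5.1.1, per the submitters' processing notes. The deposited tables hold linear signal intensity for 30146 probes, per the file headers. The sources used here do not say whether background was subtracted. Columns that recur between tables were identical in 100% of probes. In the table titled P PN2 and P E17, the second column is headed DF E17 and equals DF E17, so P E17 was taken from the table that compares it with DF E17. The authors' deposited ratios, in log10 and ordered as in the titles, served only as an alternative. Its ratios differ from those of the signals by a constant per array, as log2 -0.09 for DF over P at PN2, 0.46 at E17, 0.32 for the stages in DF and 0.87 in P.

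Of the probes, 25962 had 1 symbol in the platform annotation, 4184 were not listed with one and were left out, and 25858 matched RefSeq by gene number. The 4 columns were quantile normalised as log2 signals, without a pseudocount, and probes of a gene were averaged (python 3.11.15, numpy 2.4.6, pandas 2.3.3, matplotlib 3.10.9). The steps were checked on simulated data. With 1 hybridisation for each tissue and stage, the number of arrays limits the precision.

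Every kept member past 2-fold in at least 1 of the 4 comparisons was to be named, with 4 signals where it passed in 2 or by 2 on the log2 scale, and the TIMPs and 9 well-known proteases always. Of companion lists, the 2 highest and 2 lowest genes past 2-fold were to be named. Members and lists were chosen with earlier results of these data known. The between-probe SD, motif search and offset of 50 were chosen after the data were seen. Other ways of computing the values were no normalisation, median centring, the deposited ratios, no filter or a filter at 200, signals raised to the 5th percentile, the median or the brightest probe of a gene, and a 3-fold limit.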

Additional observations from a re-analysis of the deposited data

Results flagged for a closer look

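Adamts3 and Adamts19 moved in opposite directions between the stages in the 2 tissues. For Adamts3, PN2 over E17 was -1.34 in DF and 1.63 in P on the log2 scale, a difference of -2.97. For Adamts19 it was -1.19 in DF and 1.04 in P, a difference of -2.23. There is 1 sample per tissue and stage, so neither difference was tested. The signal in DF PN2 was near the 5th percentile of 37.9 for both genes, at 38.6 for Adamts3 and 42.4 for Adamts19.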

How the results depend on the processing

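No paired analysis was possible because the labels give no replicate numbers and each tissue and stage has 1 sample. No value below changed direction in a call. The 26 members called for DF over P at PN2 became 13 with a 3-fold limit and 17 with an offset of 50, an alternative chosen after seeing the data. The 22 called at E17 became 11 with a 3-fold limit. The 8 called for PN2 over E17 in DF became 15 without normalisation, 14 with median centring or with the deposited ratios, 4 with a filter at 200, and 1 with a 3-fold limit or the offset. The 6 called in P became 28 without normalisation and 3 with a 3-fold limit. The 15 changes between stages became 4 with a 3-fold limit and 7 with the offset. The 9 members higher in DF at both stages became 5 with a 3-fold limit, and the 5 lower at both became 11 without normalisation, 2 with the filter at 200, and 1 with a 3-fold limit or the offset. These 2 counts were also added after seeing the data. The cause was not tested, apart from the limits and filters, which by construction keep fewer members.

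With the filter of 100 and the 2-fold limit kept, 17 of 26 members at PN2, 14 of 22 at E17, 1 of 8 in DF, 2 of 6 in P and 4 of 15 changes were called under each of 7 other ways to compute the ratio (3 scalings, raised low signals, 2 choices of probe, and the offset). Some of these were lost with the filter at 200 or the 3-fold limit, as Adam25, Adam26a and Adamts3 at 200 and Adamts5, Adamts7, Mmp2 and Mmp11 at 3-fold for PN2, and Adam18 at 200 and Adamts5, Adamts9 and Timp1 at 3-fold for E17. Without normalisation the median of all genes was 0.21 for DF over P at PN2 and -0.32 at E17. Low signals, and 1 hybridisation per sample, limit these calls.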
